A study of Mus musculus with 4 samples.

Results

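Interstitial fibroblasts are the stromal cells between the seminiferous tubules. They lay down collagens, proteoglycans and laminins, they lie beside Leydig cells, blood vessels and the peritubular myoid cells, and they read signals such as PDGF, hedgehog and IGF. Myoid cells are contractile, and Leydig cells make testosterone. The 3 stromal types share part of their gene expression, so a gate on a few genes can take in nuclei of its neighbours.

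The nuclei described here came from single-nucleus RNA-seq of whole testis from 8-week-old mice, with 2 WT libraries and 2 Dhx37-/- libraries. Dhx37 encodes an RNA helicase of ribosome biogenesis. The knockout was made with a floxed exon 2 and Amh-Cre, which acts in Sertoli cells, so fibroblasts of the Dhx37-/- mice carry no intended deletion, and the WT mice were littermates. The labels call the 2 libraries of a genotype biological replicates but do not say how many mice went into each, so p-values measure the spread between these libraries.

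A nucleus was chosen by its measured UMIs (unique molecular identifiers, which count captured RNA molecules). It needed at least 500 UMIs, 500 to 5000 genes, a UMI in at least 3 of 9 gate genes (Dcn, Pdgfra, Tcf21, Col1a2, Col3a1, Lama2, C1qtnf7, Ebf1 and Adamts5), and a UMI in fewer than 3 of 8 myoid genes (Acta2, Myh11, Actg2, Tagln, Cnn1, Myocd, Synpo2 and Lmod1). Of 43625 barcodes that met the limits on UMIs and genes, 767 passed. WT replicate 1 gave 197 nuclei, WT replicate 2 gave 97, Dhx37-/- replicate 1 gave 275 and Dhx37-/- replicate 2 gave 198. Their summed UMIs ranged from 347839 in WT replicate 2 to 1191472 in Dhx37-/- replicate 1. The gate read the Dhx37-/- nuclei at greater depth: the median nucleus held 3012 or 3020 UMIs for WT and 3893 or 4875 UMIs for Dhx37-/-. No barcode was shared between the passing nuclei of any pair of libraries. Levels are given as CPM, the UMIs of a gene per 1000000 UMIs summed over the nuclei of 1 class in 1 library.

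WT replicate 1 stood apart in its RNA makeup. The 18S ribosomal RNA locus Rn18s-rs5 took 3.13% of the UMIs of its fibroblast nuclei, while WT replicate 2 had 1.00% and the Dhx37-/- replicates had 0.495 and 0.577%. RNA of other cells was present in every library, and free RNA was estimated at 29.1, 14.8, 15.3 and 14.4% of the UMIs of the fibroblast nuclei in WT replicate 1, WT replicate 2, Dhx37-/- replicate 1 and Dhx37-/- replicate 2, taking barcodes with at least 100 and under 500 UMIs as free RNA. The estimate moved with that choice, to 47.1, 30.1, 33.6 and 33.2% with barcodes of 10 to 100 UMIs. Prm1, Prm2, Tnp1 and Tnp2, which package sperm DNA, summed to 3716, 4123, 7766 and 5005 CPM in the fibroblast nuclei, in that order of libraries, which every list of 4 values keeps from here on. In the free RNA of barcodes with at least 100 and under 500 UMIs they summed to 12754, 27900, 50769 and 34703 CPM. Each estimate divides the first level by the second. WT replicate 1 was lowest in both, so its higher estimate came from the low level in its free RNA. The list of elongating spermatid genes was higher in all other nuclei, at 7244, 8009, 15996 and 10015 CPM, than in the fibroblast nuclei, at 3946, 4312, 7989 and 5238 CPM.

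The gate genes described the nuclei they chose, and their levels are given with no test. Ebf1, a transcription factor of stromal and B cells, lay at 2963, 2757, 2997 and 2463 CPM in the fibroblast nuclei and at 26.8 to 48.4 CPM in all other nuclei. Lama2, a laminin chain of basement membranes, lay at 1627, 1642, 1522 and 1210 CPM, against 46.5 to 70.9 CPM elsewhere. Adamts5, a protease that cuts proteoglycans, lay at 1205, 1394, 1266 and 1116 CPM, against 3.03 to 8.01 CPM elsewhere. Dcn, the collagen-binding proteoglycan decorin, ranged from 1051 to 1575 CPM, and Pdgfra, a receptor for PDGF, from 423 to 678 CPM. Tcf21, a transcription factor of testicular stroma, had the lowest range of the 9, from 56.8 to 97.7 CPM, and all 9 had UMIs in every library.

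The levels of the gate genes in the other stromal classes are a description, since the gate also drew those classes. Leydig nuclei lay outside the gate, so they could have 3 gate genes only with at least 3 myoid genes. Adamts5 reached 176 to 284 CPM in the 245 myoid nuclei (at least 3 myoid genes, outside the fibroblast gate) and at most 9.20 CPM in the 1243 Leydig nuclei (at least 3 of 8 Leydig genes, outside the gate). Of the 69, 24, 97 and 55 myoid nuclei, 63, 17, 80 and 40 also had at least 3 gate genes. Only the myoid limit kept those outside the gate, so the myoid class is not free of nuclei with fibroblast genes. Lama2 in myoid nuclei, at 967 to 1866 CPM, overlapped its range in fibroblast nuclei, as did Col1a2, which encodes a chain of type I collagen and reached 302 to 416 CPM in myoid nuclei. Ebf1 reached 161 to 270 CPM in Leydig nuclei and 578 to 924 CPM in myoid nuclei.

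The members fell into 2 ranges by the number of gate genes with a UMI. Nuclei with 3 gate genes numbered 163, those with 4 numbered 53 and those with 5 numbered 57, and the count rose again to 170 with 7 and 175 with 8. Just outside the gate, 1264 nuclei had 2 gate genes. With 3 gate genes, several stromal genes that the gate did not use were lower than with 8 in every library. Fbn1, the microfibril protein fibrillin, lay at 7.72, 40.8, 13.2 and 4.82 CPM with 3 gate genes and at 248, 243, 194 and 192 CPM with 8. Nr2f2, a transcription factor of interstitial cells, lay at 123, 61.3, 79.4 and 57.9 CPM with 3 gate genes and at 350, 519, 405 and 357 CPM with 8. Col6a3, a chain of type VI collagen, lay at 0, 0, 3.31 and 2.41 CPM with 3 gate genes and at 77.8, 97.3, 79.7 and 16.5 CPM with 8. With 4 gate genes, which 15, 3, 21 and 14 nuclei had, the libraries parted: Fbn1 lay at 96.8 and 476 CPM in WT and 9.10 and 13.2 CPM in Dhx37-/-, and Nr2f2 at 315, 635, 127 and 119 CPM. Bnc2, a zinc finger gene, was also lower with 3 gate genes in every library, but by less than those genes, at 1104, 561, 589 and 863 CPM against 1147, 1183, 904 and 1165 CPM with 8.

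**Figure D1:**
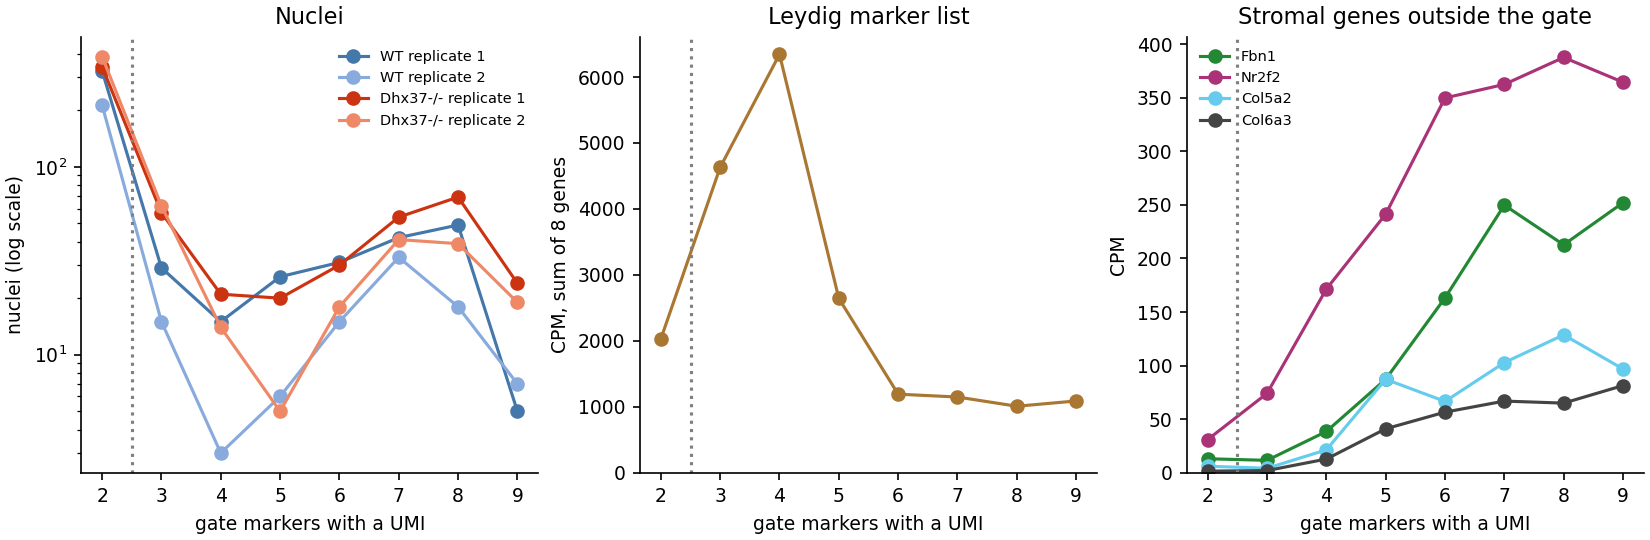
The x axis of each panel is the number of gate genes with a UMI, and the dotted line marks the gate; the panels show nuclei per library on a log scale, the summed CPM of 8 Leydig genes and the CPM of 4 stromal genes outside the gate, the last 2 panels pooled over all libraries. The pooled Leydig sum peaks at 6344 CPM with 4 gate genes, a peak of the Dhx37-/- libraries, at 7483 and 7594 CPM, and not of the WT libraries, at 1743 and 1587 CPM.

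Markers of Leydig cells went against the label at that lower end. The 8 Leydig genes (Cyp17a1, Cyp11a1, Hsd3b1, Hsd3b6, Star, Insl3, Prlr and Lhcgr) summed to 2352, 3002, 5529 and 5831 CPM in the 44, 18, 78 and 76 members with 3 or 4 gate genes, and to 1079, 1228, 1222 and 1418 CPM in the 153, 79, 197 and 122 members with 5 to 9. Every library was higher in the first set, the Dhx37-/- libraries most. Cyp17a1, which makes androgen precursors, lay at 246, 643, 842 and 642 CPM in the first set and at 73.2, 73.9, 68.0 and 78.5 CPM in the second. The share with at least 3 Leydig genes was 27.3, 27.8, 46.2 and 55.3% in the 4 libraries among members with 3 or 4 gate genes, and 7.19, 3.8, 22.8 and 29.5% among those with 5 to 9. It was higher in both Dhx37-/- libraries than in both WT libraries in each set. These shares were not corrected for depth. Over all members the Leydig genes summed to 1388, 1759, 2712 and 3503 CPM, against 270, 176, 617 and 494 CPM in other nuclei. Members with 5 to 9 gate genes also lay above other nuclei in every library. The label was clearest in the upper range, which was not free of Leydig genes. The genotype comparison is given also for members with at least 5 gate genes, a limit chosen after these values had been seen.

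Most lists of other cell types summed to low levels. Amh, a Sertoli gene, was at 0 in the fibroblast nuclei of every library. Upk3b, Msln, Krt19 and Pax8 of the 8 mesothelial and epithelial genes, and Cd3e and Bcl11b of the 6 T cell genes, were also at 0 in all 4. The macrophage list summed to 49.1 to 139 CPM in fibroblast nuclei and 148 to 260 CPM in other nuclei, and the endothelial list to 92.4 to 158 CPM and 137 to 280 CPM. The myoid list, which the gate limits, summed to 85.7 to 163 CPM, against 92.0 to 148 CPM in other nuclei. Members with 2 myoid genes numbered 10, 1, 24 and 10, and just outside the gate 14, 1, 10 and 4 nuclei had 3. Like the Leydig list, the pericyte and spermatogonia lists were higher in fibroblast nuclei than in other nuclei. The pericyte and vascular smooth muscle list lay at 229, 97.7, 121 and 96.3 CPM, against 19.0 to 29.0 CPM, with Rgs5 at 35.5 CPM in WT replicate 1 and at most 2.89 CPM in the others. The spermatogonia list lay at 416, 356, 313 and 410 CPM, against 148 to 187 CPM, mostly from Zbtb16 at 192 to 314 CPM and Kit at 63.9 to 137 CPM, and Gfra1 was below its other-nuclei level in every library. The Sertoli list lay at 200, 170, 307 and 303 CPM, against 158, 81.4, 266 and 298 CPM. Scrublet, which calls likely doublets, marked 11.7, 9.28, 8.73 and 9.09% of members and 3.32 to 4.03% of all barcodes.

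Genes outside the gate that led the fibroblast nuclei are a description, since the nuclei were selected on genes that move with them. Nrk, a kinase gene, had the highest fold over other nuclei, with 441, 379, 483 and 362 CPM in fibroblast nuclei against 0.447 to 2.87 CPM elsewhere. It stayed at 10.4 to 32 CPM in myoid nuclei and at most 12.1 CPM in Leydig nuclei. Gsn, the actin-severing protein gelsolin, lay at 838, 1452, 997 and 663 CPM, against 41.0 to 60.4 CPM in myoid nuclei. Mgp, an inhibitor of matrix calcification, lay at 549, 785, 416 and 318 CPM, and Hmcn1, a matrix protein, at 367, 264, 361 and 200 CPM, each above its myoid, Leydig and other levels in every library.

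Several of the 15 leading genes were shared with myoid nuclei, most of which also had at least 3 gate genes. Cyp26b1, which breaks down retinoic acid, lay at 389 to 742 CPM in fibroblast nuclei and 665 to 974 CPM in myoid nuclei, with at most 12.5 CPM in Leydig nuclei. Fhl2, a LIM-domain protein, was higher in myoid nuclei, at 1243 to 2537 CPM, than in fibroblast nuclei, at 834 to 1056 CPM. Egfr, the EGF receptor, lay at 629 to 755 CPM in fibroblast nuclei, 62.1 to 139 CPM in myoid nuclei and 172 to 313 CPM in Leydig nuclei. Tshz2, a transcription factor, reached 3591 to 4925 CPM in fibroblast nuclei and 1180 to 2072 CPM in Leydig nuclei. The others were Slc24a2, Gm29683, Dlc1, Plpp3, Cyp27a1, Arhgap6 and Cped1.

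**Figure D2:**
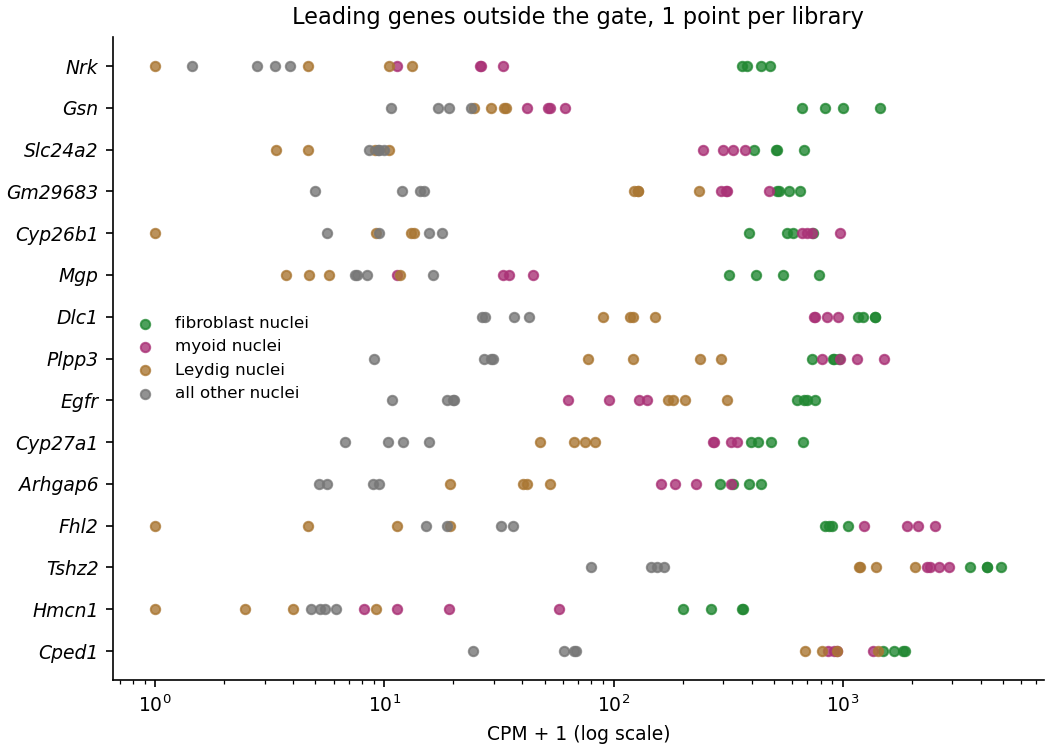
Each row is 1 of the 15 leading genes outside the gate and each point 1 library, with CPM + 1 on a log axis, for fibroblast, myoid, Leydig and all other nuclei. Nrk, Gsn, Mgp and Hmcn1 lie above the 3 other classes in every library, while Cyp26b1, Plpp3 and Fhl2 overlap with or fall below myoid nuclei.

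Levels of the matrix genes against other nuclei are a description, with no test. Of 25 collagen genes, 14 were at least 2-fold higher than in other nuclei in every library, with 5 CPM added to each level. That limit was passed by 4.26% of all 55357 genes in the files and by 18.2% of the 12810 genes tested between genotypes, and these shares stand behind each such count. Levels of at most 0.5 of those in other nuclei in every library were found for 3.94% and 13.3% of the same genes. The lists kept gate genes, among them Col1a2 in the collagens, Lama2 and Dcn in the glycoproteins and Adamts5 in the remodelling genes. Ebf1 was in the stromal transcription factors, Pdgfra in the progenitor genes and C1qtnf7 in the complement genes. The gate selected for such genes, so their part in these counts was fixed by it. The list medians between genotypes include them too. Col1a1 lay at 112, 129, 142 and 86.7 CPM, and its myoid levels, at 114 to 171 CPM, were in the same range. Col4a3 and Col4a4, basement membrane collagens, lay at 229 to 341 and 504 to 745 CPM in fibroblast nuclei and far higher in myoid nuclei, at 2196 to 2434 and 3101 to 3469 CPM. Of 45 matrix glycoproteins and proteoglycans 26 passed the 2-fold limit, and of 39 matrix-remodelling genes 20 did, with Timp2, a protease inhibitor, at 356 to 385 CPM.

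The signals and receptors showed what the nuclei could send and receive at the RNA level. Igf1, a growth factor, lay at 770, 839, 965 and 574 CPM, against 37.0 to 56.6 CPM in other nuclei and at most 38.1 CPM in Leydig nuclei. Slit3, a guidance cue, lay at 1775 to 3233 CPM, with a myoid range of 2185 to 4101 CPM. Of 66 secreted signals 24 were at least 2-fold higher than in other nuclei in every library, and 29 of 47 growth factor receptors were. Ptch1, the hedgehog receptor and a target of the pathway, lay at 199, 201, 227 and 212 CPM in fibroblast nuclei and at 673 to 1137 CPM in myoid nuclei. Boc, a hedgehog co-receptor, lay at 281 to 384 CPM and Gli2, a hedgehog transcription factor, at 77.6 to 182 CPM, and 10 of 16 hedgehog genes passed the 2-fold limit. Shh and Ihh, which encode ligands, had no UMI in any member, and Dhh, the ligand known from Sertoli cells, lay at 8.62 to 16.8 CPM, below its 30.6 to 66.4 CPM in other nuclei.

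Steroid hormone receptors differed in level between fibroblast and Leydig nuclei. Nr3c1, the glucocorticoid receptor, lay at 230, 279, 213 and 224 CPM, against 48.2 to 73.7 CPM in Leydig nuclei, while Esr1, the estrogen receptor, was lower than in Leydig nuclei in every library. Of 24 steroid receptor and response genes 10 were at least 2-fold higher than in other nuclei in every library, as were 15 of 19 genes of steroidogenic progenitors and 33 of 55 stromal transcription factors. The limit was passed by 12 of 30 interferon and inflammation genes, 10 of 39 p53 target genes, 5 of 56 ribosome biogenesis genes, 8 of 50 adhesion genes and 2 of 28 proliferation genes. In the other direction, 12 adhesion genes and 2 proliferation genes lay at no more than 0.5 of their level in other nuclei.

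Markers used for fibroblast subtypes elsewhere in the body were not uniform here. Among 18 adventitial fibroblast genes 6 passed the 2-fold limit. Igfbp6, an IGF-binding protein, lay at 229, 474, 317 and 256 CPM, and Cd34 at 178, 210, 156 and 90.5 CPM. Pi16, a defining adventitial gene, lay at 2.84, 11.5, 17.6 and 10.6 CPM, within or below its range of 11.3 to 25.8 CPM in other nuclei. Among 34 activated fibroblast genes 7 passed the limit. Postn lay at 0 to 9.63 CPM and Lrrc15 had a UMI in 1 member, while Adam12 lay at 431, 339, 525 and 582 CPM. Among complement and coagulation genes 13 of 21 passed, with Serping1, an inhibitor of the first complement component, at 306, 339, 419 and 297 CPM.

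Dhx37 itself was near the floor in these nuclei. It had 1, 1, 4 and 4 UMIs in the 4 libraries, or 1.42, 2.87, 3.36 and 3.85 CPM, too few to be tested, and lay at 7.23 to 11.9 CPM in other nuclei. A gene total cannot show the loss of 1 exon and checks nothing about the label here.

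More barcodes passed the gate in the Dhx37-/- libraries, and the difference was not resolved. WT replicate 1 had a share of 1.55% of barcodes (95% Wilson interval 1.35 to 1.78) and WT replicate 2 of 1.12% (0.921 to 1.37). Dhx37-/- replicate 1 had 2.55% (2.27 to 2.87) and Dhx37-/- replicate 2 had 1.72% (1.5 to 1.97), and these intervals cover counting error only. The mean was 1.34% ± 0.303 (SD, n = 2) in WT and 2.14% ± 0.589 (SD, n = 2) in Dhx37-/-, a difference of 0.8 percentage points (exact permutation test, two-sided, p = 0.333, the smallest that 2 against 2 libraries can give). With at least 5 gate genes the shares were 1.20, 0.914, 1.83 and 1.06%, the groups overlapped, and the difference was 0.385 points (exact permutation p = 0.667). With each nucleus thinned to 1000 UMIs the difference was 0.449 points, and without members carrying 3 Leydig genes it was 0.222 points, with overlap in both (exact permutation p = 0.667 each). A share is relative to all other nuclei, so more fibroblasts and fewer other cells cannot be told apart.

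**Figure D3:**
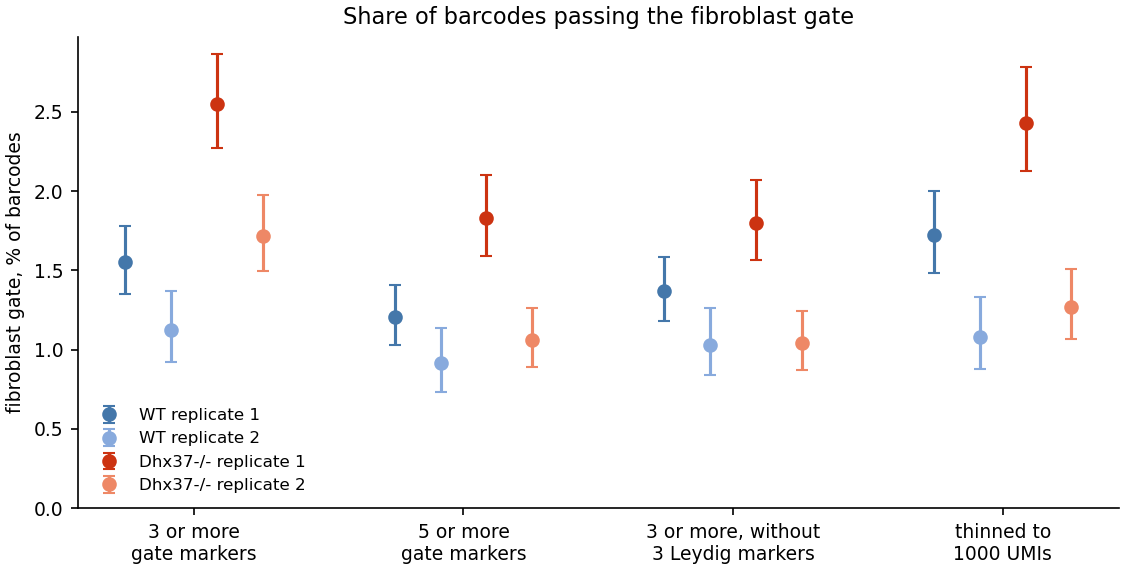
The y axis is the percent of barcodes that pass the gate, with 1 point per library and 95% Wilson intervals, under the gate as given and 3 alternatives. The 2 Dhx37-/- libraries lie above both WT libraries under the gate as given, at 2.55 and 1.72% against 1.55 and 1.12%, and Dhx37-/- replicate 2 falls among the WT libraries under the others.

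Few genes passed the test between genotypes. Of 12810 genes tested with edgeR's quasi-likelihood test on summed UMIs, 1 was higher in Dhx37-/- and 1 was lower at a Benjamini-Hochberg adjusted p under 0.05, which is 0.00781% of genes tested in each direction and 0.0156% in all. At an unadjusted p under 0.05, 683 genes were higher (5.33% of those tested) and 539 lower (4.21%). DESeq2, which gave p-values for 29806 genes and adjusted them after its own filter on low counts, called 9 higher and 5 lower. Among members with at least 5 gate genes edgeR called 0 of 9754 genes, with 398 higher (4.08%) and 399 lower (4.09%) at an unadjusted p under 0.05. Without members carrying 3 Leydig genes it called 2 of 10545 genes higher and 2 lower (0.019% each, 0.0379% in all), with 457 higher (4.33%) and 315 lower (2.99%) at an unadjusted p under 0.05. The CPM of the genotypes did not overlap for 22.2% of all genes tested on the higher side and 18.4% on the lower side, which is the background for every named gene that separates them. Leaving out a library leaves 1 library of its genotype and no spread within it, so the numbers of genes called in such fits are not given.

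Ptgds, which encodes a prostaglandin D synthase, rose in the Dhx37-/- libraries. Its levels were 101, 101, 791 and 710 CPM, with no overlap between genotypes, a log2 difference of 2.87 (SE 0.23, edgeR adjusted p = 0.0013). With at least 5 gate genes its levels were 54.4, 57.5, 295 and 175 CPM and the call was lost (log2 difference 2.04, edgeR adjusted p = 0.16). It was also lost without carriers of a somatic list (2.19, edgeR adjusted p = 0.096), and stood close to the threshold without Leydig-gene carriers (2.38, edgeR adjusted p = 0.046). Subtracting estimated free RNA left the log2 difference at 2.97, 2.97 and 3.12, with edgeR adjusted p-values of 0.0501, 0.0334 and 0.22, under 3 choices of the barcodes taken as free RNA, all made after seeing the data. Ptgds was also higher in both Dhx37-/- libraries in other nuclei, at 45.9, 29.2, 269 and 161 CPM, in Leydig nuclei, at 756, 1127, 2517 and 1651 CPM, and in myoid nuclei, at 17.8, 10.4, 157 and 120 CPM. Its genotype difference in fibroblast nuclei was not resolved from that in other nuclei (interaction log2 0.70, edgeR adjusted p = 0.39) and was larger than that in Leydig nuclei (interaction log2 1.95, edgeR adjusted p = 0.00092). The other nuclei include the Leydig nuclei, which numbered 231, 87, 456 and 469 among 12700, 8641, 10773 and 11511 barcodes within the limits. The part of these numbers in the Ptgds difference of other nuclei was not tested. The Leydig list was also higher in the Dhx37-/- members, at 1388, 1759, 2712 and 3503 CPM. With at least 5 gate genes the Leydig sum lay at 1079, 1228, 1222 and 1418 CPM, and the genotypes overlapped. Prlr gave most of that sum, at 760, 690, 648 and 894 CPM. Insl3, at 11.3, 82.1, 228 and 146 CPM, stayed higher in both Dhx37-/- libraries. So did Star and Hsd3b6, while Cyp17a1, Cyp11a1, Hsd3b1, Lhcgr and Prlr overlapped. The part of Leydig RNA in the Ptgds difference was not tested.

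Gm42826, an unnamed locus, fell in the Dhx37-/- libraries, with 144, 178, 34.4 and 38.5 CPM (log2 difference -2.15, SE 0.26, edgeR adjusted p = 0.032). Its levels in other nuclei were alike, at 149, 163, 41.6 and 45.0 CPM (interaction log2 -0.02). With at least 5 gate genes it lay at 143, 164, 29.5 and 43.8 CPM, and the log2 difference was -2.13 (edgeR adjusted p = 0.14). Without Dhx37-/- replicate 1 it was -2.04. After subtracting free RNA under the same 3 choices it was -1.85, -1.78 and -2.05, and the call was lost each time (edgeR adjusted p = 0.48, 0.45 and 0.76).

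Of the other genes with the smallest p-values on the higher side, most were high in Leydig nuclei. Hsd3b1, a steroid-making enzyme and a Leydig marker, lay at 44.1, 54.6, 168 and 168 CPM in members (log2 difference 1.77, edgeR adjusted p = 0.068) but at 28.2, 41.1, 35.9 and 20.1 CPM in members with at least 5 gate genes, where its log2 difference was -0.25. Hsd3b6, of the same family, lay at 93.8, 60.4, 237 and 487 CPM, and at 45.0, 8.21, 53.9 and 93.1 CPM with at least 5 gate genes. Lipg, an endothelial lipase, Apoc1, an apolipoprotein, Lcn2, the iron-binding lipocalin, Slc7a5, an amino acid transporter, and Defb19, a defensin, were likewise higher in both Dhx37-/- libraries without passing the test over all members, and each had a higher level in Leydig nuclei than in members in every library. In that order their log2 differences were 2.14, 1.78, 1.72, 1.29 and 1.49 over all members. With at least 5 gate genes they were 1.40, 0.62, 1.38, 0.27 and 0.97. Apoc1 then lay at 18.8, 36.9, 56.5 and 21.9 CPM, with overlap of the genotypes. By DESeq2, Hsd3b1 (adjusted p = 0.011), Hsd3b6 (0.00012), Lipg (0.049), Lcn2 (0.0040) and Defb19 (0.0095) passed. With at least 10 counts in every library Hsd3b1 (edgeR adjusted p = 0.024), Hsd3b6 (0.033), Apoc1 (0.032), Lcn2 (0.024) and Defb19 (0.034) did. With no filter on low counts, where 29806 genes were tested, all 7 genes passed the edgeR test. That setting also lowered the edgeR adjusted p of Ptgds from 0.0013 to 1.5e-21, at log2 differences of 2.87 and 2.93. Rpl29, a ribosomal protein, lay at 31.3, 20.1, 99.9 and 85.7 CPM in members and at 37.5, 44.5, 97.8 and 93.9 CPM in other nuclei.

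Gm17167, an unnamed locus, was nearly restricted to the Dhx37-/- libraries by its counts, missed the threshold over all members and passed it under several alternatives. It had 2, 0, 67 and 44 UMIs, or 2.84, 0, 56.2 and 42.4 CPM (log2 difference 4.58, SE 0.64, edgeR adjusted p = 0.068). The pattern held with at least 5 gate genes, at 3.75, 0, 79.6 and 67.5 CPM (edgeR adjusted p = 0.14). The edgeR adjusted p was 0.033 with at least 4 gate genes, 0.040 after thinning, 0.029 with the replicate block, 0.046 without Leydig-gene carriers, 0.017 without carriers of a somatic list and 0.041 without doublets. It was 0.082 by DESeq2, and by edgeR 0.074 with RLE size factors and 0.063 with at least 1000 UMIs. After subtracting free RNA under the 3 choices the edgeR adjusted p was 0.38, 0.31 and 0.76, with log2 differences of 4.45, 4.46 and 4.60. Other nuclei held 1.16 to 2.42 CPM in all 4 libraries, and the interaction of genotype and class passed the test (log2 4.31, edgeR adjusted p = 0.0088), though no gene passed that interaction with at least 4 gate genes. Against Leydig nuclei the interaction was not resolved (log2 2.65, edgeR adjusted p = 0.57). Myoid nuclei held 0, 0, 15.9 and 21.8 CPM, so the pattern was not confined to fibroblast nuclei. The GENCODE annotation places it across an overlapping pseudogene, Gm13301, on the same strand, so how reads were split between them is uncertain. WT replicate 2 was at 0, and the fitted size depended on the WT library kept. The log2 difference was 4.03 without WT replicate 2 and 8.41 without WT replicate 1. Without Dhx37-/- replicate 1 it was 4.37, and without Dhx37-/- replicate 2 it was 4.76.

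Among the lower genes, Tll1, a protease that processes procollagen, lay at 136, 132, 42.8 and 41.4 CPM (log2 difference -1.70, SE 0.24, edgeR adjusted p = 0.068), at 173, 189, 53.9 and 71.2 CPM with at least 5 gate genes, and at 3.64 to 6.42 CPM in other nuclei and at most 10.4 CPM in myoid nuclei. Fmo2, a flavin monooxygenase, lay at 144, 164, 74.7 and 60.7 CPM and at 0.383 to 1.38 CPM in other nuclei (edgeR adjusted p = 0.24). In myoid nuclei it lay at 10.7, 0, 59.2 and 18.2 CPM, higher in both Dhx37-/- libraries. Kalrn, a guanine nucleotide exchange factor, lay at 199, 213, 99.9 and 98.2 CPM (edgeR adjusted p = 0.24), and Myadm at 39.8, 28.7, 8.39 and 7.70 CPM. The genotypes did not overlap for these 4 genes, and none passed the test over all members. Tll1 passed without doublets (edgeR adjusted p = 0.030), with at least 10 counts in every library (0.024) and by DESeq2 (adjusted p = 0.041). It did not pass with at least 5 gate genes (edgeR adjusted p = 0.18). All 4 passed with no filter on low counts, with edgeR adjusted p-values of 0.00013 to 0.049. Over all its alternatives, fits without a library included, the log2 difference of Tll1 ranged from -1.84 to -1.38.

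Lars2, the mitochondrial leucyl-tRNA synthetase, followed the 18S locus. It lay at 448, 244, 88.1 and 97.3 CPM in members (log2 difference -1.95, edgeR adjusted p = 0.073) and at 213, 72.6, 36.7 and 43.0 CPM in other nuclei, highest in WT replicate 1 in both. Rpph1, the RNA of ribonuclease P, had 23, 7, 5 and 5 UMIs, and Cmss1 lay at 922, 727, 402 and 418 CPM in members and 1183, 823, 638 and 645 CPM in other nuclei. Kif26b had 22, 20, 5 and 1 UMIs, and Morrbid, a long noncoding RNA of myeloid cells, 42, 20, 20 and 16. The part of RNA quality in these differences was not tested.

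**Figure D4:**
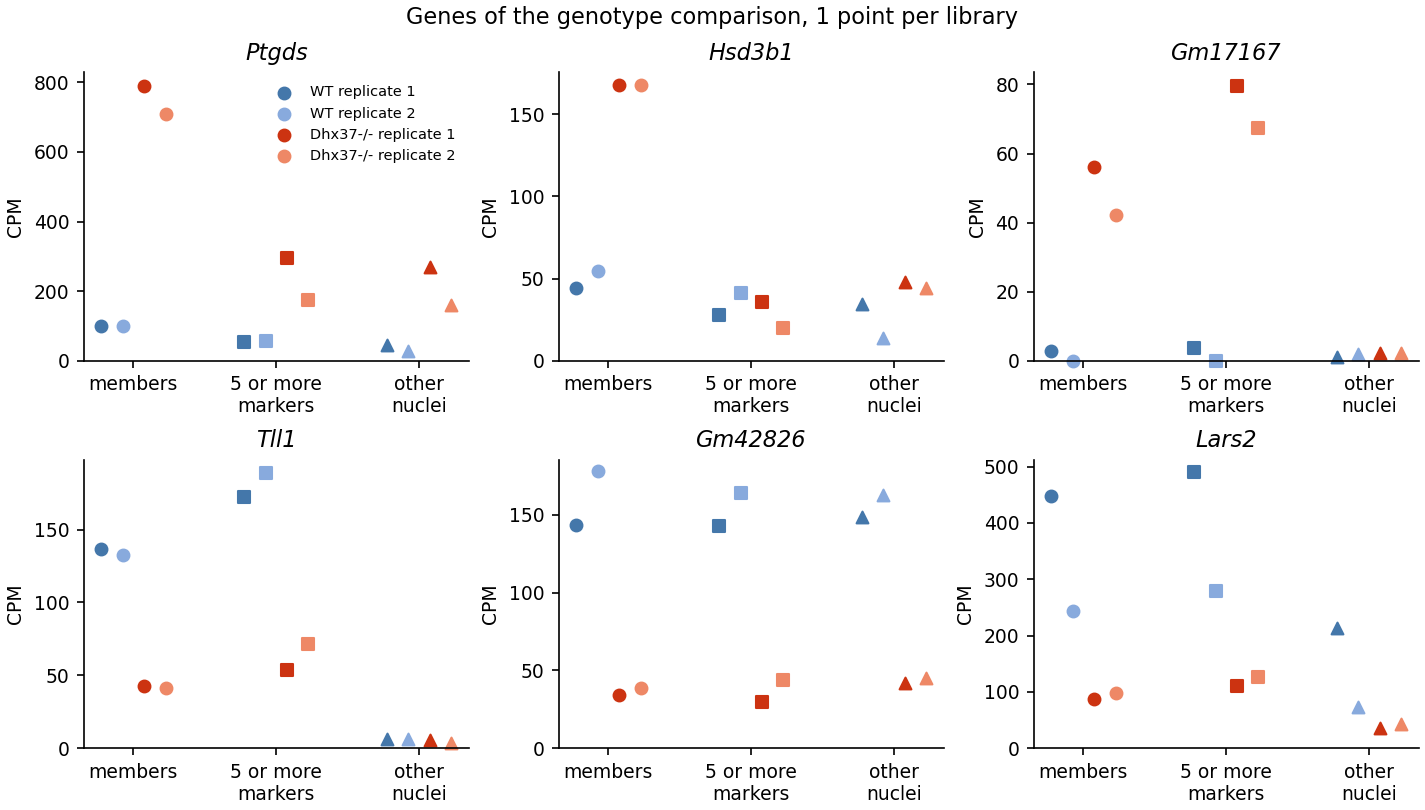
Each panel plots the CPM of 1 gene, with 1 point per library, in all members, in members with at least 5 gate genes and in all other nuclei. Hsd3b1 separates the genotypes among all members but not with at least 5 gate genes, and Gm17167, Tll1, Gm42826 and Lars2 separate them in both sets and in other nuclei, where Gm17167 at 1.16 to 2.42 CPM and Tll1 at 3.64 to 6.42 CPM are low.

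No gene of the 17 functional lists passed the edgeR test over all members or with at least 5 gate genes. Lcn2, of the interferon and inflammation list, passed over all members with at least 10 counts in every library (edgeR adjusted p = 0.024), with no filter (3.9e-06) and in DESeq2 (adjusted p = 0.0040). The medians of 5 stromal lists lay below that of all genes over all members, and 3 of these did not with at least 5 gate genes. The median log2 difference of the 20 collagens tested was -0.20, of the 34 matrix glycoproteins -0.25, of the 27 remodelling genes -0.24, of the 43 receptors -0.22 and of the 46 stromal transcription factors -0.22, against -0.01 over all genes tested. With at least 5 gate genes the same medians were 0.0084, -0.0043, 0.061, -0.17 and -0.07, against -0.02 over all genes. The Leydig list was higher in the Dhx37-/- members, and its part in the first set of medians was not tested. At an unadjusted p under 0.05, 0 collagens were higher and 5 lower, 3 glycoproteins were higher and 3 lower, 0 remodelling genes were higher and 1 lower, 0 receptors were higher and 7 lower, and 3 transcription factors were higher and 4 lower, beside 5.33 and 4.21% of all genes. For members with at least 5 gate genes these counts were 1 higher and 2 lower for collagens, 2 and 0 for glycoproteins, 2 and 1 for remodelling genes, 0 and 3 for receptors and 1 and 0 for transcription factors, beside 4.08 and 4.09% of all genes.

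The remaining lists are given by their medians, and the hedgehog, ribosome, p53, interferon and adhesion lists also by counts. These counts stand beside the same 5.33% of all genes higher and 4.21% lower at an unadjusted p under 0.05. Of 13 hedgehog genes tested, 0 had an unadjusted p under 0.05 in either direction. Of 48 ribosome biogenesis genes tested, the process in which DHX37 acts, 1 was higher and 1 lower at an unadjusted p under 0.05, with a median log2 difference of 0.17. Npm1, a nucleolar protein, lay at 89.5, 124, 152 and 121 CPM, and Ncl at 88.1, 101, 114 and 99.2 CPM, with overlap between genotypes. Of 28 p53 target and apoptosis genes tested, 1 was higher and 1 lower at an unadjusted p under 0.05. Of 17 interferon and inflammation genes, 4 were higher and 0 lower, with a median of 0.19, and of 44 adhesion and junction genes 1 was higher and 9 lower, with a median of -0.28. With at least 5 gate genes the interferon list had 2 higher and 0 lower, the adhesion list 1 higher and 5 lower, the ribosome list 0 higher and 1 lower and the hedgehog and p53 lists 0 in either direction, beside 4.08 and 4.09% of all genes. The median was -0.06 for secreted signals, -0.15 for hedgehog genes, -0.23 for steroid receptor and response genes, -0.07 for activated and -0.20 for adventitial fibroblast genes, -0.09 for progenitor genes, -0.11 for complement genes, -0.05 for p53 target genes and 0.35 for proliferation genes. Among members with at least 5 gate genes these medians were 0.071, 0.057, -0.10, -0.02, -0.09, -0.0032, -0.03, -0.01 and 0.026, in the same order, and those of the ribosome, interferon and adhesion lists were 0.21, 0.13 and -0.18. Ctnna3, an alpha-catenin, lay at 1928, 1555, 1107 and 1254 CPM in members and at 3962 to 6075 CPM in other nuclei. Ccn2, a matrix signalling protein that TGF-beta induces, lay at 188, 377, 134 and 71.3 CPM, with no overlap and an edgeR log2 difference of -1.44 that missed the adjusted threshold.

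The genotype difference in fibroblast nuclei was also tested against that in other classes. Against all other nuclei 86 of 28493 genes passed (0.302%), 34 with a higher (0.119%) and 52 with a lower (0.183%) difference in fibroblast nuclei, and the count was 6 with at least 5 gate genes and 0 with at least 4. Against Leydig nuclei 532 of 14996 genes passed (3.55%), 285 higher (1.9%) and 247 lower (1.65%), and 15 passed with at least 5 gate genes. Both counts were 0 without a term for the library.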

How the data were processed

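The authors deposited raw UMI counts per gene and barcode for each library, made with Cell Ranger, with all barcodes kept and no normalization. Labels give mm10 and the study's methods mm39; the gene identifiers include ones absent from a GRCm38 annotation, so no coordinates are given. The submitters' processing notes name Seurat 3.1.1.

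Here UMIs were summed per library over the nuclei passing the gate, and compared with edgeR 4.0.16 (TMM, default filter, quasi-likelihood test, two-sided, Benjamini-Hochberg) in R 4.3.3. DESeq2 1.42.0 was an alternative. Genotype by class interactions included the library. SEs were derived from the F statistic. Scrublet ran in scanpy 1.11.5, and doublets were left in except in an alternative. On simulated data with 200 genes changed 4-fold, run on 12810 genes for the genotype comparison, 88.6% of the changed genes tested were recovered, with 9 false calls. Of the 200, 175 were tested. The simulation gave every gene the same dispersion and held no free RNA, mixed nuclei or outlying library. It checks the fit and does not give the share of 4-fold changes that these data could resolve.

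Free RNA was estimated from Prm1, Prm2, Tnp1 and Tnp2 and a profile of barcodes with few UMIs. No UMI range for that profile had been set in advance. Ranges of 10 to 100, then 100 to 300, then at least 100 and under 500 UMIs were taken in turn after looking at barcode totals and first estimates, and all 3 are reported.

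Members and gene lists were chosen with earlier results of these data known. Named genes were the gate and myoid genes, Dhx37, the 10 smallest p-values in each direction, called genes and the 3 highest by CPM of each list, and the 15 leading genes at 50 CPM or more in every library. Other list members named were chosen after their values were seen. Some genes covered by this rule or these lists are not reported here.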

Additional observations from a re-analysis of the deposited data

Results flagged for a closer look

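For 21 genes of the naming rule, the edgeR test of genotype and class found that the genotype difference differed between fibroblast nuclei and another class of the same libraries, which does not require a difference in fibroblast nuclei. Values are the log2 difference in fibroblast nuclei minus that in the other class. The result was not weighed against any cause, and these calls were made over all members, 3 or 4 gate genes included.

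Hsd3b1 and Hsd3b6, which define the Leydig nuclei, gave 2.29 and 1.79 against Leydig nuclei, and Pdgfra, a gate gene, gave -1.09 against all other nuclei; since these genes chose the nuclei, their values are a description.

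Against all other nuclei, Gm17167 gave 4.31, Kif26b -3.36, Kalrn -1.36 and Igfbp6 -1.06, the last with overlap of the genotypes in fibroblast nuclei, at 229, 474, 317 and 256 CPM. Kif26b rested on few UMIs, as given above, in 8, 3, 4 and 1 members, and was not tested with at least 5 gate genes. It lay at 31.3, 57.5, 4.20 and 0.963 CPM over all members and at 13.1, 20.5, 0 and 1.83 CPM with at least 5 gate genes.

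Against Leydig nuclei, Lipg gave 2.61, Ptgds 1.95, Adam12 1.55, Slc7a5 1.28, Lcn2 1.23, Il1r1 1.21, Defb19 1.14, Igf1r 1.09, Esr1 1.01 and Vcam1 0.989. Those below 0 were Kif26b at -3.23, Morrbid at -2.37, Col4a3 at -2.11, Slit3 at -2.04 and Ctnna3 at -1.48. In fibroblast nuclei the log2 difference was 0.0069 for Igf1r, 0.036 for Esr1, 0.049 for Il1r1 and -0.21 for Col4a3, with edgeR adjusted p-values of 0.81 to 0.99, and their genotypes overlapped there but not in Leydig nuclei. Esr1, the estrogen receptor, lay at 1218, 783, 645 and 570 CPM in Leydig nuclei and at 358, 417, 354 and 450 CPM in fibroblast nuclei. Igf1r, a growth factor receptor, lay at 1071, 948, 649 and 504 CPM in Leydig nuclei and at 796, 736, 775 and 792 CPM in fibroblast nuclei. Il1r1, a cytokine receptor, lay at 296, 202, 146 and 128 CPM in Leydig nuclei and at 151, 118, 128 and 159 CPM in fibroblast nuclei. Col4a3, a basement membrane collagen, lay at 5.47, 9.41, 31.7 and 26.1 CPM in Leydig nuclei and at 341, 276, 316 and 229 CPM in fibroblast nuclei.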

How the results depend on the processing

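The share of nuclei was higher in Dhx37-/- under every alternative but that without members carrying any other list, where it was -0.0683 percentage points with 10, 5, 0 and 0 members left, and no gene test was run on so few. Leaving out each library gave 0.383 to 1.22 points. Genes called higher and lower were 90 and 45 of 29806 tested with no filter. By DESeq2 they were 9 and 5, with 29806 p-values before its own filter on low counts. They were 6 and 3 of 7507 with at least 10 counts and 2 and 2 of 10271 with at least 4 gate genes. With at least 5 gate genes they were 0 and 0 of 9754, and after thinning 2 and 4 of 9816. Without Leydig-gene carriers they were 2 and 2 of 10545, and without carriers of a somatic list 1 and 3 of 10165. Without doublets they were 2 and 3 of 11652. The replicate block gave 2 and 1; nothing in the labels says that a number marks a shared animal or batch, and the correlation of -0.071 over 2 same-numbered pairs is too little to tell. Leaving out each library gave 1 to 113 higher and 1 to 92 lower; with at least 5 gate genes, 3 and 6 without WT replicate 1, 58 and 124 without WT replicate 2, 2 and 5 without Dhx37-/- replicate 1, and 0 and 0 without Dhx37-/- replicate 2.

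Subtracting estimated free RNA depended on the barcodes taken as free RNA, whose estimated share was 14.1 to 27.6% with 100 to 300 UMIs and 30.1 to 47.1% with 10 to 100, highest in WT replicate 1 each time. With at least 100 and under 500 UMIs the calls were 0 and 0, with 100 to 300 they were 1 and 0, and with 10 to 100 they were 0 and 0, and the edgeR adjusted p of Ptgds was 0.0501, 0.0334 and 0.22. The ranges were chosen after seeing the data, as were the limits of 5 gate genes, of Leydig genes and of somatic lists.

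Genotype differences unlike other nuclei numbered 0 with at least 4 gate genes, 6 with at least 5, 213 without carriers of a somatic list and 0 with no library term, and those unlike Leydig nuclei 9, 15, 17 and 0. Of 458 alternative values for 20 named genes, 352 kept their side of the threshold, 87 in 18 genes passed it where the value over all members had not, 14 in Ptgds and Gm42826 no longer passed, and 5 reversed. These values include fits without a library, which have no spread within the genotype left with 1 library, so the tally is only a description. Lars2 passed with at least 4 gate genes (edgeR adjusted p = 0.033), after thinning (0.040) and without doublets (0.018). Hsd3b1 was -0.25 with at least 5 gate genes, and -0.54, -0.0027 and -0.76 when WT replicate 1, WT replicate 2 or Dhx37-/- replicate 1 was also left out. Apoc1 was -0.28 with at least 5 gate genes and without Dhx37-/- replicate 1. The cause was not tested. Depth limits genes with few UMIs, such as Kif26b.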
